A study of Mus musculus with 78 samples.

Results

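Zfp108, Zfp109, Zfp111, Zfp112, Zfp114, Zfp180, Zfp235, Zfp61, Zfp93 and Zfp94 form a tandem cluster of zinc finger genes on mouse chromosome 7, from 24081924 to 24316666 in mm10, a stretch of 234.7 kb. These 10 genes were selected on their place in the cluster and on a ZFP143 peak at each promoter, out of 55401 genes in the count tables. Zfp111 gave the cluster its name because its RNA had already been seen to fall steeply when ZFP143 was removed, so its values are given below as a description with no test, and counts of called genes are over the other 9.

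The cells were E14TG2a, a line of mouse embryonic stem cells (mESCs), kept in 2i/LIF medium. In the edited lines every copy of Zfp143 carried an FKBP12F36V degron, followed by 2xHA, P2A and eGFP, so the control cells carried the tag as well. Control cells received DMSO and depleted cells 500 nM dTAG-V1, which directs the tagged protein to a ubiquitin ligase for destruction. Nascent RNA was measured by transient transcriptome sequencing (TT-seq, RNA labelled for 10 min with 2 mM 4-thiouridine) in DMSO and at 2 h, 6 h and 24 h of dTAG. Steady-state RNA was measured by RNA-seq in DMSO and after 24, 48 and 72 h of dTAG. In a separate RNA-seq experiment with retinoic acid (RA), cells were held for 24 h in DMSO or dTAG and sampled before or after a further 24 h in RA medium with the same compound, so that the depleted RA libraries had 48 h of depletion. RA came with a change of medium, and the effects of these cannot be told apart. Each group held 2 libraries, which the study's methods describe as biological replicates. The edited lines were clones, and dTAG on cells without the degron is not analysed here.

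Zinc finger genes of this kind arise by tandem duplication, which leaves neighbours with similar promoters and similar coding exons. Many such genes in mammals encode a KRAB domain, which recruits the corepressor TRIM28 and through it the histone methyltransferase SETDB1, and many of the encoded proteins silence transposable elements, also in embryonic stem cells. ZFP143 is itself a zinc finger protein, an activator that binds close to transcription starts through a long DNA element with the words ACTACA and TTCCCA in it. Individual roles of the 10 genes are not given here.

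The promoters of the cluster shared a short stretch of sequence, and it is shown first because ZFP143 occupied each of them. The 64-base windows below lie around the match to TTCCCAGAA nearest the summit of each peak, read from the RefSeq GRCm38 genome on the strand of that match. Capitals mark ACTACA and TTCCCAGAA.
Zfp180, chr7:24081840-24081903, minus strand: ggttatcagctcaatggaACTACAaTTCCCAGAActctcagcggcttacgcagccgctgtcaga
Zfp112, chr7:24112319-24112382, minus strand: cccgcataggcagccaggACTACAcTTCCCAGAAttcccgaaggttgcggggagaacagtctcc
Zfp235, chr7:24134104-24134167, minus strand: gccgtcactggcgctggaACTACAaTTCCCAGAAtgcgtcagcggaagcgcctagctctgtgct
Zfp114, chr7:24174993-24175056, minus strand: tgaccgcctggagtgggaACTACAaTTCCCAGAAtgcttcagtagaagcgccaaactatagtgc
Zfp111, chr7:24208129-24208192, plus strand: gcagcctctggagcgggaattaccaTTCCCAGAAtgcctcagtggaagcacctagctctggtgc
Zfp109, chr7:24237694-24237757, plus strand: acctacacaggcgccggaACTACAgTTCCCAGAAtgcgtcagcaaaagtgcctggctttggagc
Zfp108, chr7:24254692-24254755, minus strand: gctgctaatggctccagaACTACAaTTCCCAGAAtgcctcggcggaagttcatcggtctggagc
Zfp93, chr7:24270312-24270375, minus strand: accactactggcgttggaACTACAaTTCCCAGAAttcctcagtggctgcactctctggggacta
Zfp61, chr7:24299314-24299377, plus strand: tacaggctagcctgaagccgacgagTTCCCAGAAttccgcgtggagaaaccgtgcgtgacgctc
Zfp94, chr7:24316660-24316723, plus strand: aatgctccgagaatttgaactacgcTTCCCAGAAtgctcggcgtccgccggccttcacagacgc

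In the windows of Zfp180, Zfp112, Zfp235, Zfp114, Zfp109, Zfp108 and Zfp93, ACTACA stood 1 base before TTCCCAGAA. In those of Zfp111, Zfp61 and Zfp94 it did not. Within 150 bp of the summit TTCCCAGAA occurred 2 times at Zfp108 and at Zfp111 and 3 times at Zfp94, and the second match of Zfp111 did have ACTACA 1 base before it.

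Each word was then counted, on both strands, within 150 bp of the summit. TTCCCAGAA was found in 10 of the 10 member peaks, in 8.44% of the 3189 peaks of the list and in 1.28% of 32851 RefSeq promoters of the same length. Its shorter form TTCCCA was in 10 members, 49.3% of peaks and 25.6% of promoters. ACTACA was in 9 members, 40.1% of peaks and 10.3% of promoters, and the member without it was Zfp61. CCCANNATG, a word that can overlap TTCCCA, was in 6 members, 25.7% of peaks and 5.01% of promoters. GCATG was in 2 members, 37.9% of peaks and 33.1% of promoters. TTCCCAGAA was added to the search after the member sequences had been read. The 10 promoters are related copies, so they do not count as independent matches.

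The strand of the word was the same relative to the gene throughout the cluster. In 10 of 10 members the TTCCCAGAA nearest the summit ran opposite to transcription. Over the whole list, 116 promoter peaks held the word beside genes of a single strand, and in 49 of them (42.2%) it ran opposite to transcription.

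ZFP143 occupancy came from chromatin immunoprecipitation of the HA tag in 1 DMSO library, with peaks called by the authors against input. Each member had 1 peak, with a summit 4 to 163 bp upstream of a transcription start. At Zfp111, Zfp61 and Zfp112 this was a start inside the extent of the gene. The fold enrichment over input was greatest at Zfp94 (91.8, rank 160 of 3189 peaks). It was 49.9 at Zfp180, 48.7 at Zfp111, 47.6 at Zfp235 and 45.2 at Zfp112. Lower enrichments of 31.6 at Zfp93, 31.5 at Zfp114, 29.7 at Zfp108 and 25.6 at Zfp109 were still above the list median of 20.8. The peak at Zfp61 was the weakest, with an enrichment of 6.84 and rank 2863. None of the 10 peaks overlapped a peak of CTCF, the insulator protein, and the nearest CTCF peak lay between 11176 bp (Zfp61) and 205396 bp (Zfp180) away. The peak of Zfp94 was also at the promoter of Gm44513, a processed pseudogene, and no other member peak was shared with another gene. The peaks chose the genes, so these values are a description.

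**Figure D1:**
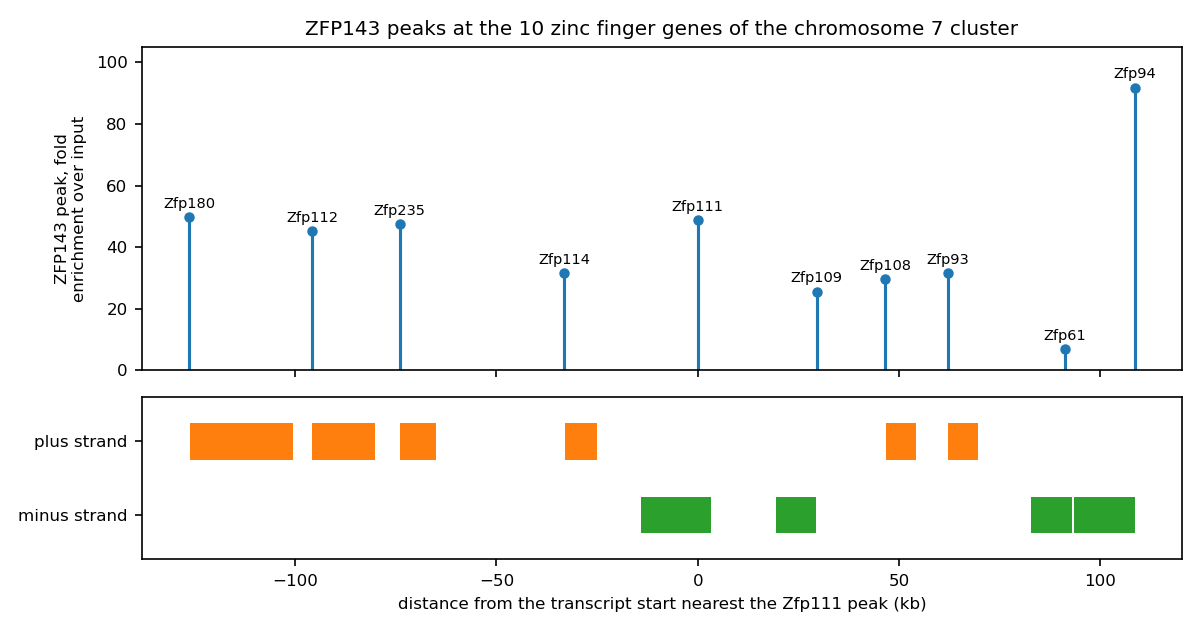
Fold enrichment over input of the ZFP143 peak at each member (upper panel, linear axis from 0) and the extent of each gene on the plus or minus strand (lower panel), against the distance in kb from the transcript start nearest the Zfp111 peak. The peaks of Zfp111 and Zfp61 stand visibly inside the drawn extent of the gene, that of Zfp112 just inside and the others at its edge, and Zfp94 has the highest at 91.8 and Zfp61 the lowest at 6.84.

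The control cells transcribed the cluster at unequal levels. Levels are given as CPM, counts scaled to a common library size, with the SD of 2 libraries. They are per kb of the whole gene for nascent RNA and per kb of exon for steady-state RNA, so levels are compared only within an experiment. Zfp180 was the highest in each experiment, at 3.70 ± 0.140 for nascent RNA, 8.78 ± 0.993 for the time course of steady-state RNA and 10.3 ± 0.101 for the RA experiment. Zfp111 came next in TT-seq (2.45 ± 0.216) and in the time course (5.09 ± 0.0854), and stood below Zfp61 (5.74 ± 0.0595) in the RA experiment (3.45 ± 0.0448). Zfp114 was the lowest in TT-seq (0.230 ± 0.0873) and in the RA experiment (0.191 ± 0.0143), and Zfp112 was the lowest in the time course (0.155 ± 0.0379). Neighbours in this order were separated by more than their SDs, except Zfp112 and Zfp114 in TT-seq, Zfp235 and Zfp94 in the time course, and Zfp109 and Zfp235 in the RA experiment.

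The samples were checked first. Total counts per library were 9721568 to 16532077 in TT-seq, 10261851 to 15316700 in the time course and 13890761 to 27089033 in the RA experiment, and 17870, 13925 and 15915 genes passed the filter on low counts. The Zfp143 transcript, which dTAG does not target, rose in dTAG by 1.16 to 1.38 (log2) in TT-seq and the RA experiment and by 1.09 to 1.30 in the time course, so it is no check of the loss of the protein. The summed CPM of 8 embryonic stem cell markers was 3522 to 4029 in TT-seq, went from 5855 to 5974 in DMSO to 4173 to 4242 after 72 h in the time course, and was 6010 to 6955 before RA against 684 to 1587 after RA. The summed level of 6 primitive endoderm markers went from 6.23 to 7.47 CPM in DMSO to 18.4 CPM after 72 h in the time course, and in TT-seq from 11.3 to 13.8 in DMSO to 23.5 to 25.3 at 24 h. In the RA experiment it was 4.72 to 5.90 CPM in DMSO and 8.82 to 11.3 in dTAG before RA, and 40.2 to 42.0 and 55.6 to 57.6 after it. Of 6 fibroblast markers, Dcn was at 0 in every group while their sum after RA was 6.57 to 10.3 CPM in DMSO and 25.9 to 26.1 in dTAG. The sum of 5 neural markers was lower in dTAG in each RNA-seq comparison. It was 217 to 226 CPM in DMSO against 129.9 to 131.8, 97.0 to 103.8 and 135.2 to 142.9 at 24, 48 and 72 h, 241 to 256 against 138 to 139.7 before RA, and 108.2 to 124.2 against 50.8 to 53.3 after RA. In bulk samples fewer cells of a type and less RNA per cell cannot be told apart, and the part of these shifts in the results below was not tested.

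After 2 h of dTAG 1 of the 6 other members tested in TT-seq, Zfp109, was called lower, beside the low values of Zfp111. Zfp111 had 441 and 528 counts in DMSO, then 26 and 33 (2 h), 25 and 17 (6 h) and 9 and 7 (24 h). In CPM it went from 42.8 ± 3.79 to 2.02 ± 0.0593, 1.67 ± 0.384 and 0.706 ± 0.249, and no depleted library came near the DMSO libraries. The log2 changes were -4.40 ± 0.26 (SE), -4.67 ± 0.27 and -5.93 ± 0.30. Zfp111 was selected on such values.

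Of the other 9 genes, 6 passed the filter on low counts (above 10 in 4 or more of the 8 TT-seq libraries) and could be tested with edgeR, at an adjusted p under 0.05 and a log2 change beyond 0.5. Zfp109 was the member that fell. It had 103 and 121 counts in DMSO, then 56 and 45 (2 h), 33 and 43 (6 h) and 25 and 32 (24 h). The DMSO libraries were higher than each depleted library at every time. Its log2 changes were -1.48 ± 0.30 at 2 h (adjusted p = 0.0416), -1.69 ± 0.31 at 6 h (adjusted p = 0.0225) and -2.02 ± 0.32 at 24 h (adjusted p = 0.00862). Leaving out any 1 of the 4 libraries ended the call at 2 h and at 6 h, with log2 changes of -1.14 to -1.87 and -1.48 to -1.94, and at 24 h only the library 24 h replicate 2 did so (-2.00, adjusted p = 0.0544).

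The share of all genes called lower was 2.43% at 2 h, 2.83% at 6 h and 4.09% at 24 h, against 1 of the 6 members tested at each time. A nearer background is the other zinc finger genes with a promoter peak, of which 31 of 104 (29.8%) were lower at 2 h, 28 (26.9%) at 6 h and 37 (35.6%) at 24 h. Of the other zinc finger genes without such a peak, 2 of 250 (0.800%) were lower at 2 h. The median log2 change at 2 h was -0.72 with a peak and -0.05 without.

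Zfp112, Zfp180, Zfp235, Zfp61 and Zfp93 were each lower in every depleted library than in both DMSO libraries, but none passed the test. At 2 h the log2 changes were -0.97 ± 0.25 for Zfp112, -0.42 ± 0.11 for Zfp180, -0.99 ± 0.23 for Zfp235, -0.56 ± 0.19 for Zfp61 and -0.99 ± 0.30 for Zfp93, with adjusted p-values from 0.0742 to 0.290. With the replicate number as a block, Zfp235 was called lower at 2 h and Zfp93 at 6 h. Zfp180, the most highly transcribed, had 95.4 ± 3.61 CPM in DMSO and 71.2 ± 0.283, 71.5 ± 3.97 and 71.4 ± 4.15 CPM at 2, 6 and 24 h. Its level was thus about the same at the 3 times. Zfp112 had 5.03 ± 0.407 CPM in DMSO, 2.58 ± 0.169 at 2 h and 4.17 ± 0.335 at 24 h.

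Zfp94, Zfp108 and Zfp114 were too low in the depleted TT-seq libraries to pass the filter. Zfp94 had 58 and 75 counts in DMSO, then 7 and 7, 3 and 2, and 4 and 9. Zfp108 had 42 and 45 counts in DMSO, then 5 and 8, 3 and 3, and 7 and 5. Zfp114 had 23 and 18 counts in DMSO, then 4 and 5, 4 and 3, and 1 and 3. For each of them both DMSO libraries were higher than all 6 depleted libraries. A ratio was taken of summed counts over the summed library sizes used for CPM, DMSO against 2 h dTAG. It was 12.1 for Zfp94 (95% exact interval 6.99 to 22.8), 8.56 for Zfp108 (4.75 to 16.7) and 5.83 for Zfp114 (2.79 to 13.6). Such intervals cover counting error only. For Zfp94 the ratio was 29.1 (12.2 to 91.1) at 6 h and 10.5 (5.92 to 20.2) at 24 h. Only the DMSO libraries of these 3 genes hold over 10 counts, so no test is given for them.

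**Figure D2:**
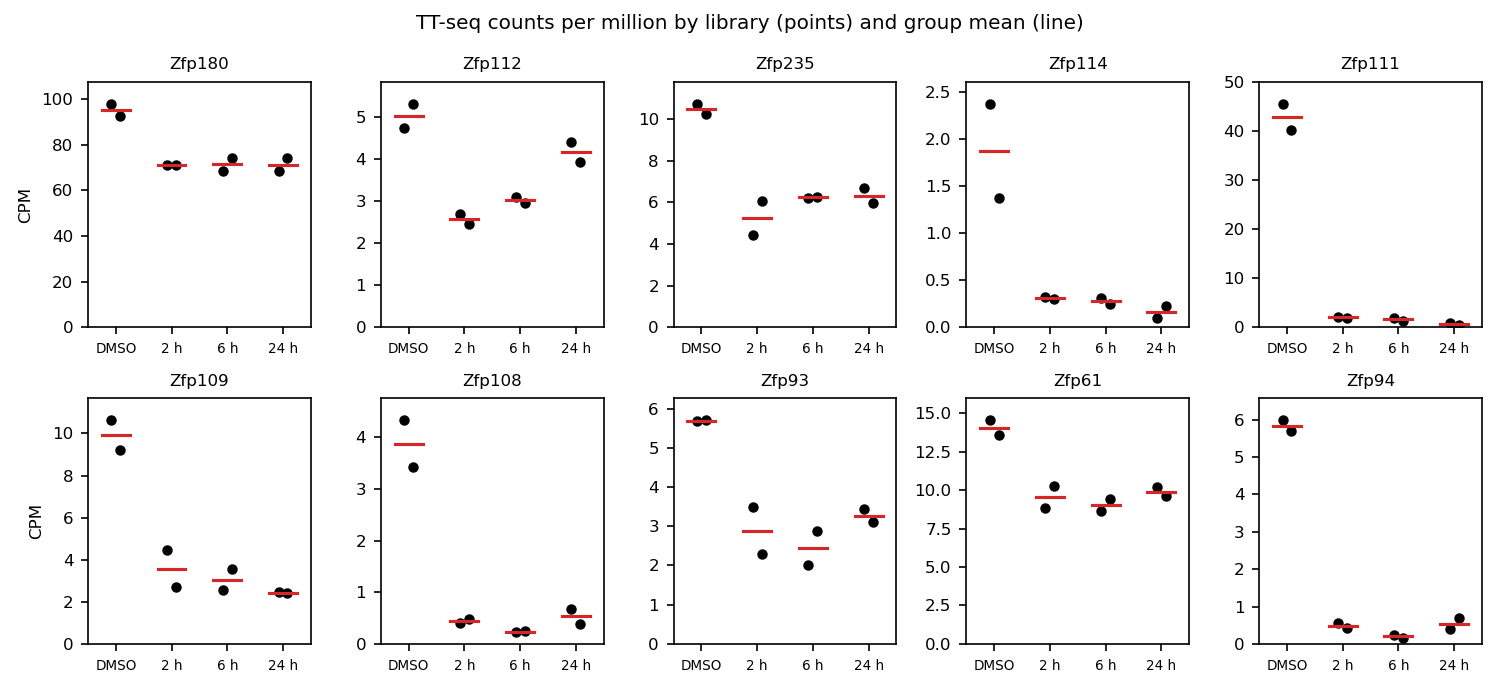
TT-seq CPM (linear axis from 0) of each member by library (points) with the mean of 2 libraries (line), in DMSO and at 2 h, 6 h and 24 h of dTAG, in the order of the genes on the chromosome. Zfp111 drops from 42.8 to 2.02 CPM by 2 h, and Zfp180 from 95.4 to 71.2 CPM.

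From 2 h to 24 h of depletion, none of the 6 other members tested was called by edgeR (1 of 6 at an unadjusted p under 0.05, 0 by DESeq2), while 0.0895% of all genes were called in either direction. This background depends on the tool and on the model. Lower and higher, edgeR called 10 and 6 genes, DESeq2 195 and 229, and edgeR with the replicate number as a block 390 and 572. Zfp112 had the greatest upward difference among the 6, 0.69 ± 0.25, with an adjusted p of 0.250. Zfp111 had a log2 change of -1.54 ± 0.33 from 2 h to 24 h.

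In steady-state RNA, Zfp109 and Zfp94 were lower than DMSO after 24, 48 and 72 h of dTAG. RNA-seq calls required a change significantly beyond 1.5-fold in edgeR at an adjusted p under 0.01. Zfp94 had 66 and 85 counts in DMSO, then 2 and 3 (24 h), 2 and 9 (48 h) and 14 and 13 (72 h). Its level went from 6.05 ± 0.00235 CPM to 0.217 ± 0.0792, 0.480 ± 0.452 and 1.09 ± 0.288 CPM, with log2 changes of -4.76 ± 0.44 (adjusted p = 8.96e-09), -3.68 ± 0.37 (adjusted p = 3.14e-08) and -2.50 ± 0.31 (adjusted p = 1.15e-06). The depleted libraries were all below DMSO, and both 72 h libraries were above all those of 24 and 48 h. The rise from 24 h to 72 h, 2.26 ± 0.64 on the log2 scale, did not pass the test (adjusted p = 0.0225).

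Zfp109 had 69 and 98 counts in DMSO, then 14 and 18 (24 h), 9 and 10 (48 h) and 16 and 12 (72 h). Its log2 changes were -2.28 ± 0.27 (adjusted p = 5.08e-06), -3.04 ± 0.31 (adjusted p = 4.12e-08) and -2.59 ± 0.28 (adjusted p = 1.31e-07), with no overlap between depleted and control libraries. Zfp93 had 40 and 66 counts in DMSO, then 23 and 26 (24 h), 32 and 38 (48 h) and 15 and 22 (72 h). It was called lower only at 72 h, by -1.54 ± 0.28 (adjusted p = 0.00107), a call that ended in DESeq2 (adjusted p = 0.103) and without DMSO replicate 2 (-1.34, adjusted p = 0.0210).

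Zfp235, Zfp61 and Zfp180 were not called at any time. Zfp235 had 11.0 ± 1.60 CPM in DMSO and 5.38 ± 1.17, 6.21 ± 0.245 and 6.70 ± 0.0476 CPM after 24, 48 and 72 h, which was below DMSO in every library (log2 changes -1.04, -0.84 and -0.73). Zfp61 gave -0.16, -0.40 and -0.63. Zfp180 gave -0.48 ± 0.09 at 24 h, -0.27 ± 0.08 at 48 h and 0.03 ± 0.08 at 72 h. Its 72 h libraries overlapped DMSO. Of all genes, 3.41% were called lower at 24 h, 7.71% at 48 h and 12% at 72 h, against 2, 2 and 3 of the 6 members tested. Of the other zinc finger genes with a promoter peak, 40.6%, 43.6% and 39.6% of 101 were lower. Between 24 h and 72 h 0 of the 6 members were called by edgeR or DESeq2, against 14.1% of all genes in either direction. Against 1.5-fold, 1 had an unadjusted p under 0.05, Zfp94. The libraries of Zfp180 (0.51 ± 0.09), Zfp235 (0.31 ± 0.18), Zfp61 (-0.47 ± 0.12) and Zfp93 (-0.53 ± 0.33) did not overlap either.

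Zfp111, Zfp108, Zfp112 and Zfp114 did not pass the filter in the time course. Zfp111 had 557 and 735 counts in DMSO, then 8 and 3, 3 and 1, and 2 and 7. The DMSO over dTAG ratio of its summed counts was 110.1 at 24 h (95% exact interval 61.3 to 221.0), 308 at 48 h (120 to 1131) and 147 at 72 h (77.1 to 322). Zfp114 had 15 and 19 counts in DMSO and 0 in all 6 depleted libraries, and was at least 10.6-fold lower at 24 h, 10.8-fold at 48 h and 11.6-fold at 72 h, taking a floor of 3 counts over the 2 libraries of a time. With the counting error of DMSO included as well, the exact 95% lower limits were 8.18, 8.31 and 8.93. Zfp108 had 15 and 28 counts in DMSO and 1 to 3 in each depleted library, a ratio of 13.4 at 24 h (95% exact interval 4.30 to 67.7). Zfp112 had 11 and 10 counts in DMSO and 0 to 6 in each depleted library, and its ratio was 3.28 at 24 h (1.28 to 9.93) and 2.15 at 72 h (0.968 to 5.11), with a lower bound of 1.69 at 48 h, so that only the interval at 72 h reached 1. Of these 4 genes no test is given.

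**Figure D3:**
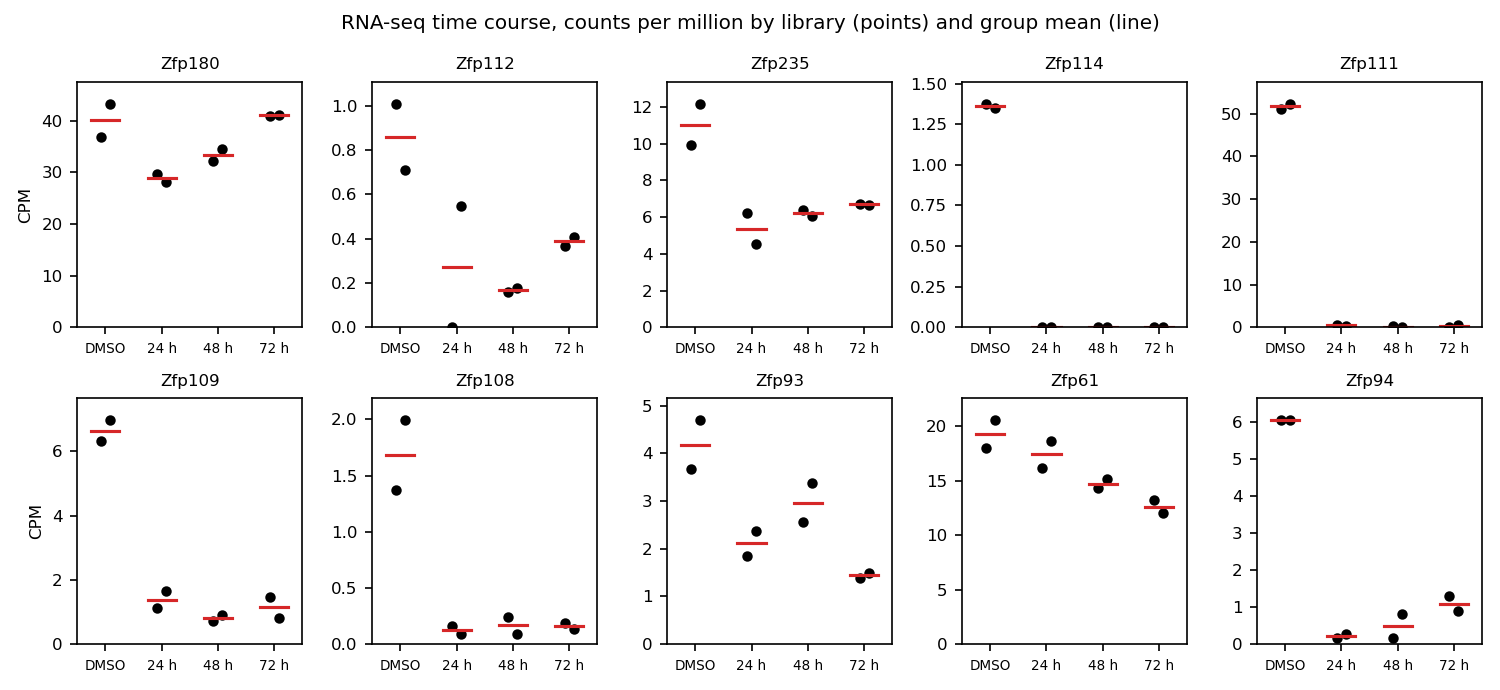
RNA-seq CPM (linear axis from 0) of each member by library (points) with the mean of 2 libraries (line), in DMSO and after 24, 48 and 72 h of dTAG. Zfp94 falls from 6.05 to 0.217 CPM at 24 h and stands at 1.09 CPM at 72 h, and Zfp180 at 72 h (41.0 CPM) overlaps DMSO (40.0 CPM).

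The RA experiment was sequenced more deeply, and all 10 genes passed its filter. Zfp108 and Zfp114 passed it only through the 4 DMSO libraries, where they are high, so they had to differ by depletion and are described by their counts with no test. Before RA, 24 h of dTAG lowered 4 of the 7 genes other than these and Zfp111. Zfp94 went from 5.47 ± 0.611 to 0.177 ± 0.0307 CPM (-4.87 ± 0.35, adjusted p = 1.89e-09), and its 96 and 103 counts became 3 and 5.

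Zfp109 went from 133 and 91 counts to 21 and 20 (-2.71 ± 0.27, adjusted p = 1.28e-06). Zfp112 went from 27 and 35 to 10 and 9 (-1.97 ± 0.37, adjusted p = 0.00351). Zfp235 went from 11.5 ± 0.598 to 5.14 ± 0.222 CPM (-1.16 ± 0.15, adjusted p = 0.00190). In all 4 genes the dTAG and DMSO libraries were separated. The calls of Zfp112 and Zfp235 ended without DMSO replicate 2 (-1.70 and -1.10), dTAG replicate 1 (-2.22 and -1.11) or dTAG replicate 2 (-1.69 and -1.20), and that of Zfp235 under scaling by library size alone (-1.02). DESeq2 called 2 of the 4 (Zfp109 and Zfp94). Among the genes described without a test, Zfp114 went from 17 and 14 counts to 0 and 1, a ratio of DMSO over dTAG of 37.7 (95% exact interval 6.28 to 1535). Zfp108 went from 36 and 37 counts to 2 and 7, a ratio of 9.86 (4.92 to 22.4).

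Zfp180 (-0.43 ± 0.08), Zfp61 (-0.52 ± 0.10) and Zfp93 (-0.14 ± 0.22) were not called before RA. Zfp180 and Zfp61 were nonetheless lower in both dTAG libraries, and Zfp93 overlapped. Zfp111 went from 674 and 606 counts to 2 and 13, or from 35.0 ± 0.455 to 0.311 ± 0.293 CPM, a log2 change of -6.67 ± 0.23. Of all 15915 genes 3.66% were called lower. The share was 43.5% of 108 other zinc finger genes with a promoter peak, 0.787% of 254 without one, and 21.0% of 2224 genes of any kind with a peak.

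**Figure D4:**
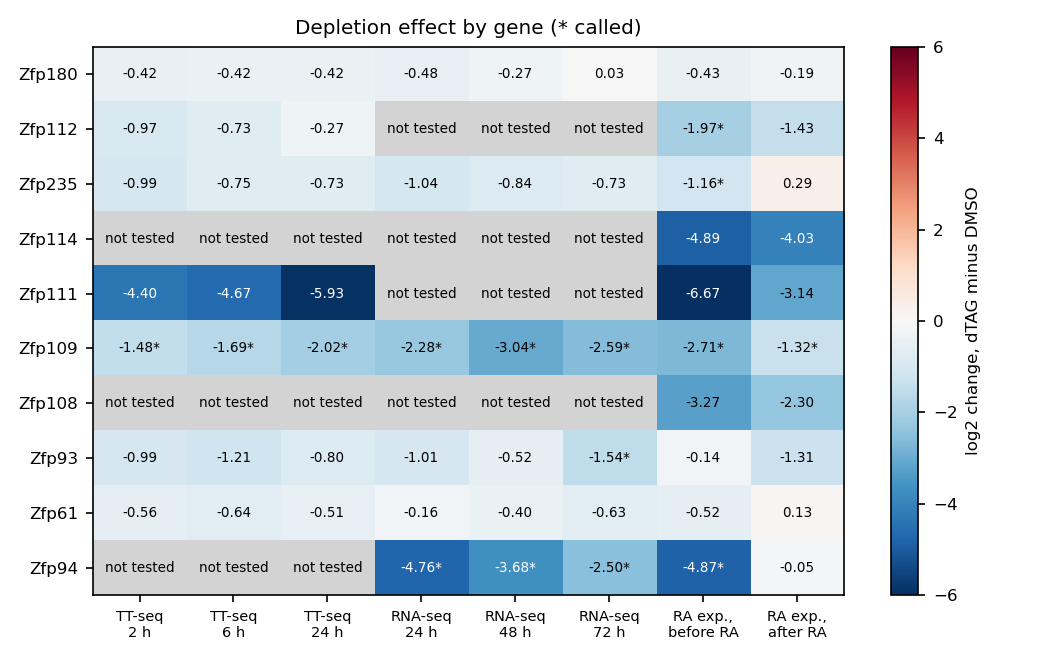
Log2 change of each member, dTAG minus DMSO, in the 8 comparisons of depletion with its DMSO control (blue lower, red higher, colours capped at 6, grey not tested for low counts). Asterisks mark calls, and none is marked for Zfp111, which was selected on such values, or for Zfp108 and Zfp114, which passed the filter only through DMSO libraries. Zfp109 is called in all 8 comparisons, and Zfp94 is called before RA (-4.87) and not after it (-0.05). The TT-seq times share their DMSO libraries, as do those of the time course, so the 8 are not independent.

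After RA depletion lowered 1 of the same 7 genes, Zfp109, against 7.36% of all genes and 27 of the 108 other zinc finger genes with a peak. Zfp109 went from 143 and 72 counts in DMSO with RA to 38 and 58 in dTAG with RA (-1.32 ± 0.24, adjusted p = 0.00434). Its call ended in DESeq2 (adjusted p = 0.189), without DMSO RA replicate 1 (-1.09) or dTAG RA replicate 1 (-1.04), and under scaling by library size alone (-1.11). Of the genes without a test, Zfp114 went from 32 and 29 counts to 1 and 3, a ratio of DMSO over dTAG of 17.2 (95% exact interval 6.39 to 65.2). Zfp108 went from 29 and 28 to 6 and 7, a ratio of 4.95 (2.68 to 9.86).

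Zfp111 had 355 and 259 counts in DMSO with RA and 40 and 39 in dTAG with RA. That is 16.6 ± 1.41 against 1.87 ± 0.0905 CPM, with a log2 change of -3.14 ± 0.19, and the groups did not overlap.

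Zfp94 did not differ detectably by depletion after RA. It had 119 and 76 counts in DMSO with RA and 88 and 124 in dTAG with RA, or 5.21 ± 0.0498 against 5.01 ± 1.05 CPM, and the libraries overlapped (-0.05 ± 0.20). Zfp235 was at 7.00 ± 0.604 CPM in DMSO with RA and 8.46 ± 0.0896 in dTAG with RA (0.29 ± 0.15), and Zfp61 at 16.4 ± 1.02 and 18.0 ± 0.0112 (0.13 ± 0.11). For both of these genes the dTAG libraries lay above DMSO, the opposite of their order before RA, but neither difference was called. Zfp112 (-1.43 ± 0.34, adjusted p = 0.0156), Zfp93 (-1.31 ± 0.29, adjusted p = 0.0147) and Zfp180 (-0.19 ± 0.09) were not called. Library size alone as the scaling put the median of all genes at 0.212 (log2) after RA, and with it Zfp180 came to 0.02 and Zfp94 to 0.16.

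The effect of RA itself was compared within each condition, in comparisons that share libraries with those above. In DMSO, 0 of the 9 other genes were called by edgeR or by DESeq2, with 0 at an unadjusted p under 0.05 against 1.5-fold. Of all genes, 18.1% were called lower and 25.8% higher. Zfp235 (-0.72 ± 0.15), Zfp61 (-0.63 ± 0.11), Zfp93 (-0.60 ± 0.24) and Zfp180 (-0.41 ± 0.09) had negative values, and Zfp114 a positive one (0.95 ± 0.35). Zfp94 was at 5.47 ± 0.611 CPM before and 5.21 ± 0.0498 CPM after RA, and the libraries overlapped. Zfp111 went from 35.0 to 16.6 CPM, a log2 change of -1.08 ± 0.13.

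In dTAG, Zfp94 rose from 3 and 5 counts to 88 and 124, or from 0.177 ± 0.0307 to 5.01 ± 1.05 CPM (4.76 ± 0.35, adjusted p = 3.62e-10). Of all genes 25% were called higher. Zfp93 fell from 67 and 92 counts to 22 and 22 (-1.77 ± 0.27, adjusted p = 8.60e-05), where 18.5% of all genes were called lower. Zfp109 had 0.943 ± 0.207 CPM before and 2.27 ± 0.602 after RA (1.29 ± 0.31, adjusted p = 0.0110, not called), and Zfp235 5.14 ± 0.222 and 8.46 ± 0.0896 (0.72 ± 0.15, adjusted p = 0.133, not called). Zfp111 went from 0.311 ± 0.293 to 1.87 ± 0.0905 CPM.

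**Figure D5:**
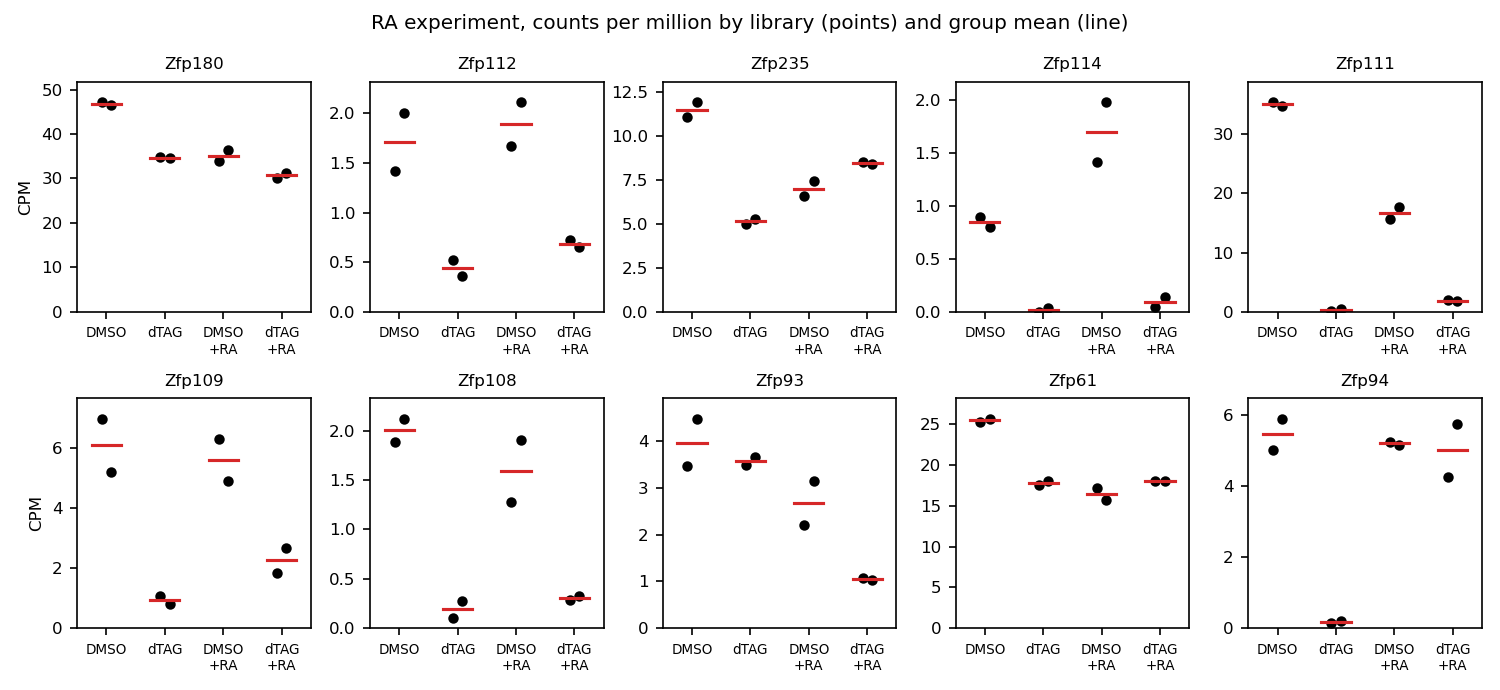
RNA-seq CPM (linear axis from 0) of each member by library (points) with the mean of 2 libraries (line), in the 4 groups of the RA experiment. Zfp94 is at 0.177 CPM in dTAG before RA and at 5.01 CPM in dTAG with RA, beside 5.21 CPM in DMSO with RA, while Zfp114 stays near 0 in both dTAG groups.

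Whether depletion acted differently before and after RA was tested as an interaction, the log2 effect after RA minus that before RA, at an adjusted p under 0.05 and beyond 0.5. Of the 7 genes other than Zfp108, Zfp111 and Zfp114, 4 were higher, against 13.7% of all genes and 38.0% of the 108 other zinc finger genes with a peak. They were Zfp94 (4.82 ± 0.42, adjusted p = 1.70e-08), Zfp235 (1.44 ± 0.21, adjusted p = 1.35e-05), Zfp109 (1.40 ± 0.38, adjusted p = 0.00534) and Zfp61 (0.65 ± 0.15, adjusted p = 0.00132). For Zfp94 the depletion effect was -4.87 before and -0.05 after RA, and for Zfp235 -1.16 and 0.29. Zfp93 was lower (-1.17 ± 0.37, adjusted p = 0.0136), where 18% of all genes were. The calls of Zfp93 without DMSO RA replicate 2 (-0.91) or dTAG RA replicate 2 (-1.08) and of Zfp109 without dTAG replicate 2 (1.16) were lost, and DESeq2 did not call Zfp93 (adjusted p = 0.0656). The other RNA-seq comparisons required a change significantly beyond 1.5-fold at an adjusted p under 0.01. At those thresholds in edgeR the calls of Zfp61 (adjusted p = 0.485), Zfp109 (0.0503) and Zfp93 (0.118) were also lost. Zfp112 (0.55 ± 0.52) and Zfp180 (0.24 ± 0.12) were not called. The interaction of Zfp111, 3.54 ± 0.39, draws on values that selected it and is a description.

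The copies share some sequence, and reads that map to several places equally well are not counted for any of them. Of the exonic 50-base words of each gene, none was shared with another member in Zfp112, Zfp180 and Zfp61, 0.744% in Zfp94, 2.21% in Zfp111, 2.85% in Zfp109, 3.81% in Zfp235, 5.90% in Zfp114, 9.31% in Zfp93 and 9.47% in Zfp108. The values of Zfp93, Zfp108 and Zfp114 are the least complete in this respect. The cluster also holds 2 noncoding genes, Gm44793, which is antisense to Zfp112, and Gm44796, and neither passed the filter in any experiment.

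The members' RNA was then set beside the corepressors with which KRAB zinc finger proteins work. Of 21 such genes, among them Trim28 and Setdb1, edgeR called 0 in TT-seq at each time (0, 0 and 1 by DESeq2). At an unadjusted p under 0.05 were 1, 5 and 8 after 2, 6 and 24 h, beside 2017, 3112 and 3884 of all 17870 genes. Of all genes, 2.43%, 2.83% and 4.09% were called lower and 0.168%, 0.397% and 2.02% higher. The median log2 change of the 21 at 24 h was -0.23. In RNA-seq it called 0 after 24 h of dTAG, in the time course and before RA, and DESeq2 called 0 in both. Against 1.5-fold, 0 had an unadjusted p under 0.05 in both, and the median log2 changes of the 21 were -0.20 and -0.19. Later in the time course 3 of the 21 (14.3%) were lower at 48 h and 2 (9.52%) at 72 h, beside 7.71% and 12% of all genes. At 48 h Hdac1, Cbx1 and Uhrf1 were lower (1 lower by DESeq2) and Dnmt3l, a cofactor of DNA methylation, was higher (2.01 ± 0.24). At 72 h Hdac1 (-1.04 ± 0.05) and Cbx1 (-0.83 ± 0.05) were lower and Dnmt3l was at 3.66 ± 0.19 (2 lower and 1 higher by DESeq2). Of all genes 10.5% were higher at 48 h and 13.7% at 72 h. RA in DMSO lowered 9 of the 21 (9 by DESeq2), where 18.1% of all genes were lower. They were Trim28 (-1.75 ± 0.07), Setdb1 (-1.31 ± 0.07), Uhrf1 (-1.84 ± 0.07), Hdac1, Cbx3, Smarcad1, Dnmt1, Dnmt3b and Daxx. RA in DMSO raised 2, Dnmt3a and Resf1 (1 by DESeq2), where 25.8% of all genes were higher. RA in dTAG lowered 10 of the 21 (8 by DESeq2, and 18.5% of all genes), with Trim28 at -1.69 ± 0.07 and Setdb1 at -1.06 ± 0.07. It raised 1, Dnmt3a (1.47 ± 0.07, and 1 by DESeq2), where 25% of all genes were higher. After RA, depletion lowered 1, Resf1 (-0.90 ± 0.07, and 1 by DESeq2), against 7.36% of all genes. The interaction was lower for Atf7ip (-0.57 ± 0.10) and Resf1 (-1.03 ± 0.10) and higher for Daxx (0.79 ± 0.10), with 2 lower and 1 higher by DESeq2, where 18% of all genes were lower and 13.7% higher.

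The genes whose pattern over all 24 libraries was most like that of Zfp111 were sought among the 8830 genes with a mean of at least 100 counts in each table. The likeness was Pearson's r of log2(CPM + 0.5), less the mean of the DMSO libraries of each table. The closest were Ube2d1 (r = 0.976), Zmat5 (0.973), Iqgap3 (0.972), Med16 (0.970) and Lmnb2 (0.970), and each had a ZFP143 peak at its promoter. Of the members, Zfp61 was at 0.562 (rank 718) and Zfp180 at 0.465 (rank 1084), and the other 7 were under the count limit in at least 1 table. The 24 libraries share their depletion groups, so these are descriptions.

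Contacts within the cluster were measured by circular chromosome conformation capture (4C) after 6 h of dTAG, with Zfp108 and Zfp111 as viewpoints, 2 libraries per group and 316959 to 486248 reads per library. In RPM (reads scaled to the library total), summed within 10 kb of the start of each other member, 9 of 18 pairs were lower in both dTAG libraries than in both DMSO libraries, with dTAG over DMSO ratios of 0.815 to 0.937 from Zfp108 and 0.748 to 1.13 from Zfp111. These were 5 of 9 pairs from Zfp108 and 4 of 9 from Zfp111. Of all 20-kb bins within 1 Mb, 20.4% of 98 from Zfp108 and 19.1% of 94 from Zfp111 were lower in the same way. A test of these bins in edgeR, added after the data were seen, called 1 lower and 1 higher from Zfp108 and 0 from Zfp111 (7 at an unadjusted p under 0.05). The member windows are neighbours and can share bins. The pairs were not tested singly, and with 2 against 2 an exact permutation test cannot go below p = 0.333.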

How the data were processed

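Per the labels and the study's methods, the authors mapped TT-seq and RNA-seq reads with STAR to mm10 and deposited raw read counts per GENCODE vM25 gene. TT-seq counts came from htseq-count after reads with several map positions and duplicates had been removed and the rest split by strand, with reads over several genes counted for each. RNA-seq counts came from the counting mode of STAR, which leaves out multi-mapping reads, and the strand column taken is not given in the sources used here. The ZFP143 peak list deposited by the authors gives for each peak a ratio (its enrichment over input) and a q value as −log10, called on 1 library. Their CTCF list pools DMSO and dTAG cells. The 4C table deposited by the authors holds RPM per fragment, and whole reads were recovered for 100% of its values (tolerance 0.05 reads). Of its columns, 20 are of other viewpoints and were not used, and Hi-C and ATAC-seq were not analysed here.

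Members and lists were chosen with earlier results of these data known, and the text names all 10 members, the Zfp143 transcript, genes that share a peak, called corepressors and the 5 genes most like Zfp111. Each count table was fitted whole in edgeR 4.0.16 (R 4.3.3), with its quasi-likelihood model, TMM scaling and genes above 10 counts in at least 4 of 8 libraries. The filter was set on counts, so it drops genes that are low in all depleted libraries. TT-seq and the interaction used glmQLFTest with a Benjamini-Hochberg adjusted p under 0.05 and a log2 change beyond 0.5. The other RNA-seq comparisons used glmTreat at 1.5-fold with an adjusted p under 0.01. The p-values of all tests are two-sided and adjusted over all genes of a table. CPM uses TMM library sizes. A peak was put at a promoter where it overlapped 2000 bp upstream to 1000 bp downstream of a start and its centre lay within 2000 bp of it. Gene models were GENCODE vM21 of the same build, which held 55141 of the 55401 gene IDs. The fits were tested on simulated data. Alternatives were RLE or no scaling, other filters, DESeq2 1.42.0, a replicate block, other thresholds and leaving out each library.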

Additional observations from a re-analysis of the deposited data

Results flagged for a closer look

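For 5 of the 7 members other than Zfp108, Zfp111 and Zfp114 the effect of ZFP143 depletion after RA differed from that before RA in a test of the difference itself, edgeR's interaction term, which is why they are set apart here. The difference (log2, after minus before) was 4.82 for Zfp94, 1.44 for Zfp235, 1.40 for Zfp109 and 0.65 for Zfp61. Zfp93 had a difference of -1.17 in the other direction. Over all genes the test called 13.7% higher and 18% lower, and 38.0% of the other zinc finger genes with a ZFP143 peak were higher. The call of Zfp93 was lost in DESeq2 (adjusted p = 0.0656) and without DMSO RA replicate 2 (-0.91) or dTAG RA replicate 2 (-1.08). That of Zfp109 was lost without dTAG replicate 2 (1.16). With glmTreat at 1.5-fold, as in the other RNA-seq comparisons, the calls of Zfp61 (adjusted p = 0.485), Zfp109 (0.0503) and Zfp93 (0.118) were lost. Zfp111 had a difference of 3.54, but it had been selected on its fall, which enters this value, so it is a description and is not counted. RA came with a change of medium, and these cannot be told apart. It also came with a second day of depletion. In the separate time course, 48 h of dTAG without RA gave depletion effects of -3.68 for Zfp94, -3.04 for Zfp109, -0.84 for Zfp235, -0.40 for Zfp61 and -0.52 for Zfp93, where the 48 h of dTAG with RA gave -0.05, -1.32, 0.29, 0.13 and -1.31. The summed CPM of 8 embryonic stem cell markers after RA was 684 to 1016 in DMSO and 1341 to 1587 in dTAG, and the part of that difference in the values above was not tested.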

How the results depend on the processing

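Over the alternatives run, 1128 log2 changes were recomputed for 102 pairs of a member and a comparison. Of these 1060 kept their side of the threshold, 39 lost it, 29 gained it, and 0 that were called changed sign, while 23 that were called in neither setting did. Counts below are of the 9 members other than Zfp111, and include genes that passed a filter only through DMSO libraries, which had to differ (Zfp108 and Zfp114 in the RA experiment, and those added by weaker filters). In TT-seq at 2, 6 and 24 h the count called lower was 1, 1 and 1. It was 4, 5 and 4 with no filter, 4, 4 and 4 with the filter at 2 libraries (added after the data were seen), 2 and 2 with the replicate block at 2 and 6 h, and 0, 0 and 0 with the thresholds of RNA-seq. In RNA-seq at 24, 48 and 72 h the count called lower was 2, 2 and 3, became 4, 4 and 5 both with no filter and with the filter at 2 libraries, and 4 at 24 h and 5 at 72 h with the thresholds of TT-seq. From 24 h to 72 h the count called higher went from 0 to 1 with no filter and to 2 with the thresholds of TT-seq. Before RA the count called lower was 6, and 3 in DESeq2. After RA it was 3, with 1 in DESeq2 and 5 under the thresholds of TT-seq. For RA in DMSO the thresholds of TT-seq gave 3 lower and 1 higher instead of 0. For RA in dTAG the count called higher was 1, with 2 under the size factors of DESeq2, 3 under library size alone and 3 under the thresholds of TT-seq. For the interaction the count called lower was 1, with 0 in DESeq2 and 0 under the thresholds of RNA-seq, and that called higher 4, with 2 under the latter. The cause was not tested, except that the filters change which genes are tested. Leaving out 1 library gave 0 to 0 (2 h and 6 h) and 0 to 1 (24 h) lower in TT-seq, 1 to 2 at each time in RNA-seq, 2 to 4 before RA, 1 to 3 after RA, 1 to 1 lower and 1 to 2 higher for RA in dTAG, and 0 to 1 lower and 3 to 4 higher for the interaction. A member that no longer passed the filter without a library counts there as not called. The replicate numbers are shared by the groups, but nothing states that they mark a pairing. Deviations of same-numbered libraries correlated at 0.205 to 0.652 in TT-seq, -0.046 to 0.060 in the time course and -0.146 to 0.167 in the RA experiment, and the replicate block changed the count of called members by over 1.5 times only in TT-seq at 2 h (Zfp235 was added) and 6 h (Zfp93 was added). Over all genes the block moved the TT-seq calls, lower and higher, from 435 and 30 to 662 and 87 at 2 h, from 506 and 71 to 956 and 359 at 6 h, from 730 and 361 to 1214 and 1009 at 24 h, and from 10 and 6 to 390 and 572 for 24 h against 2 h. With no filter these 4 became 774 and 162, 980 and 338, 1178 and 1025, and 490 and 820. DESeq2 moved the RNA-seq calls from 475 and 323 to 335 and 102 at 24 h, from 1073 and 1456 to 729 and 780 at 48 h, from 1677 and 1912 to 1156 and 1123 at 72 h, from 919 and 1048 to 478 and 535 for 72 h against 24 h, from 583 and 436 to 474 and 143 before RA, and from 1171 and 1449 to 765 and 789 after RA. Library size alone as the scaling put the median of all genes at 0.149 to 0.234 (log2) against DMSO in the RNA-seq time course, at 0.200 and 0.212 for depletion before and after RA, and at 0.352 and 0.394 for RA in DMSO and dTAG, where Zfp109 (0.21) and Zfp94 (0.25) turned positive in DMSO and Zfp180 (0.22) in dTAG. Under it the share of lower among all called genes fell by over 10 percentage points in 9 comparisons, as after RA, where 1171 lower and 1449 higher became 762 and 2089. The count of member promoters with a peak was 10 with the peak centre within 500 bp and 9 with only peaks above the median enrichment. The count of 4C pairs lower in both dTAG libraries was 10 within 5 kb and 12 within 20 kb. Depth limits Zfp108, Zfp112 and Zfp114, whose libraries hold at most 70 counts in DMSO.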
